A study of Mus musculus with 8 samples.

Results

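Atf4 and 9 genes of the amino acid and integrated stress response were followed in whole mouse pancreas. The genes were Atf4, Atf3, Ddit3, Trib3, Chac1, Asns, Psat1, Phgdh, Psph and Slc7a11, chosen by symbol, and they are 10 of the 29621 genes in the table. RNA came from the pancreas of C57BL/6 mice at postnatal day 42, taken after perfusion, in 4 libraries per genotype. KPC mice carried p48-Cre, an oncogenic allele held silent until Cre removes a stop cassette, and Trp53fl/fl. KPC-OG mice carried all of these alleles and R26tm1(LSL-OG), a further Cre-dependent allele at the R26 locus of what the series title calls an antigenic model, so Cre, the oncogenic allele and the floxed Trp53 gene were shared by both groups. The p48 (Ptf1a) locus drives Cre in the epithelial lineage of the pancreas, so stromal, vascular and immune cells in the tissue are outside the recombined lineage. The labels do not say that each library came from a separate mouse, so the p-values cover spread among libraries that may be technical.

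ATF4 is a basic leucine zipper transcription factor whose messenger RNA is translated more when the initiation factor eIF2 is phosphorylated by one of its kinases, among them GCN2, which senses uncharged tRNA, and PERK, which senses unfolded protein in the endoplasmic reticulum. Its targets include enzymes that make non-essential amino acids, amino acid transporters, and the stress factors ATF3 and CHOP (Ddit3). The acinar cell makes digestive enzymes at a very high rate, and the exocrine pancreas is known for a high level of asparagine synthetase. Because much of the control of ATF4 is translational, its messenger RNA level is not a measure of its protein.

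Many ATF4 targets carry a C/EBP-ATF response element, whose core TGATGNAA (reverse complement TTNCATCA) was searched on both strands of RefSeq promoter windows of 300 bases in GRCm38.p6, from 250 before to 50 after each start. All 10 genes matched a window, 11 windows in all. The windows of 5 genes, Atf3, Trib3, Chac1, Asns and Slc7a11, held 6 matches, and the windows of Atf4, Ddit3, Psat1, Phgdh and Psph held none. Over all 32851 windows 3.97% held a match, or 4.51% of 27025 symbols. The stretches around the matches are shown because they set the genes with the core in this window apart from those without it there. Each is written 5′ to 3′ on the gene's strand with the match in capitals.
Atf3, chr1:191183425-191183454, minus strand: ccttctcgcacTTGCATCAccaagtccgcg
Trib3, chr2:152344028-152344057, minus strand: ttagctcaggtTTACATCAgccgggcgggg
Chac1, chr2:119351038-119351067, plus strand: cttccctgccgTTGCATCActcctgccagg
Asns, chr6:7693214-7693243, minus strand: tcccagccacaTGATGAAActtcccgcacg
Slc7a11, chr3:50443637-50443696, minus strand: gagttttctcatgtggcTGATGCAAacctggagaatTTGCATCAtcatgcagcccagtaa
The Atf3 match lay from position -110 to -103 relative to the start, the Chac1 match from -193 to -186 and the Asns match from -23 to -16. The Trib3 match lay at 15 to 22 after the start. These positions count from RefSeq starts, which can differ from the gene bounds given below, as for Atf3 and Asns. The Trib3 and Asns stretches overlap annotated exons. Slc7a11 held a match on each strand, 11 bases apart. The antioxidant response element core TGACNNNGC (reverse complement GCNNNGTCA), searched in the same way, was found in the windows of Asns, Phgdh and Psph, against 14.0% of all symbols. A match describes letters in this window and is not evidence of binding. Sequence outside the window was not searched, so a gene without a match may still hold the core elsewhere.

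The KPC libraries held 7373286 to 11292570 estimated reads and the KPC-OG libraries 13671606 to 18292115. The 10 genes together took 0.0292% to 0.0348% of gene counts in the former and 0.0328% to 0.0406% in the latter. Reads assigned to Lars2 took 20.8% to 30.0% of counts in KPC and 3.73% to 7.11% in KPC-OG, and with Lars2 left out edgeR called the same numbers of the 10 genes higher and lower. Levels were scaled with TMM, which sets the typical gene level between libraries, and are given as TMM-scaled CPM (counts scaled to a common library total). Scaled by library size alone, the typical tested gene had a log2 fold change of 1.82, which is 1.74 above its value with TMM, so every direction below is relative to the typical gene unless another scale is named. Under TMM, edgeR called 2486 of 14267 tested genes higher in KPC-OG and 2373 lower, against 13078 higher and 99 lower with library sizes alone. Trp53, floxed in both groups and so no check between them, averaged 4.01 ± 1.07 TMM-scaled CPM over the KPC libraries (SD, n = 4) and 7.05 ± 1.19 over the KPC-OG libraries. Defining acinar genes were present in all libraries: the list of 32 acinar enzyme genes took 49.9%, 48.7%, 41.0% and 47.9% of counts in KPC 1 to KPC 4. It took 36.5%, 29.5%, 51.2% and 23.5% in KPC-OG 1 to KPC-OG 4. KPC-OG 3 stood apart from its group in this share and in its TMM factor (1.14, against 1.83 to 2.28 in the other 3), and values without it are given below.

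Relative to the typical gene, 7 of the 10 genes fell in KPC-OG and 1, Atf3, rose at an adjusted p under 0.05 (edgeR quasi-likelihood, adjusted over all tested genes), while Ddit3 and Trib3 did not pass. The share of all tested genes called was 34.1%, with 17.4% called higher and 16.6% called lower. The 10 genes were chosen with earlier results of these data known, so this contrast is a description. The median log2 fold change of the 10 was -0.85, beside 0.09 for the whole table. In 7 of the 10 genes the TMM-scaled levels of the groups did not overlap, as in 34.5% of all tested genes. In 6 of them KPC-OG was the lower group, as in 17.0% of all tested genes. Without KPC-OG 3 the 10 genes gave the same calls. All 10 passed the filter on low counts, but Atf3 reached the minimum of 0.824 CPM in 1 of 4 KPC libraries and Trib3 in 3 of 4, so these passed through the KPC-OG libraries. The call and the lack of overlap of Atf3, which is high in those libraries, are therefore given as a description. Under library-size scaling, where 91.7% of all genes were called higher and 0.694% lower, 6 of the 10 were called higher and 0 lower.

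**Figure D1:**
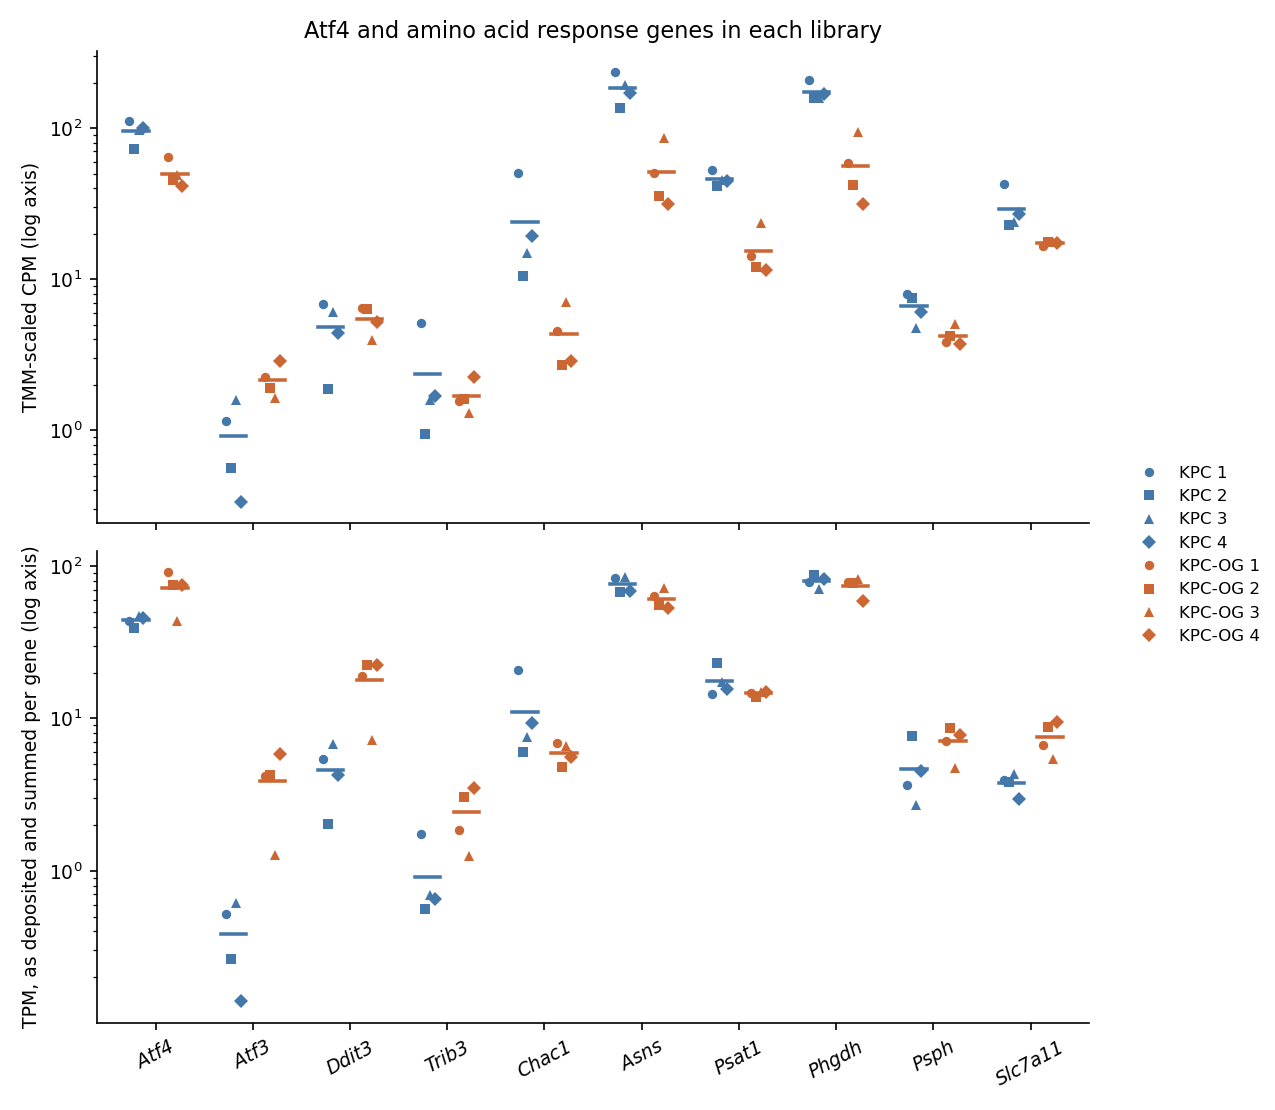
Level of each of the 10 genes in each library, on log axes, as TMM-scaled CPM (top) and as deposited TPM summed per gene (bottom); points are libraries and bars are group means. On the TMM scale the KPC libraries lie above the KPC-OG libraries for Atf4, Chac1, Asns, Psat1, Phgdh and Slc7a11. On the TPM scale Atf3, Ddit3 and Slc7a11 lie higher in all 4 KPC-OG libraries. The median tested gene also rose as TPM, with a log2 fold change of 1.31 for TPM + 1 and 1.69 for TPM + 0.1. After re-centring on it, Slc7a11 had log2 fold changes of -0.48 and -0.72. The share of all genes without overlap as TPM was not computed.

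Atf4 itself (ENSMUSG00000042406, chromosome 15, 80255184 to 80257541, GRCm38) stood at 111, 72.5, 97.4 and 100.3 CPM in KPC 1 to KPC 4. In KPC-OG 1 to KPC-OG 4 it stood at 64.2, 45.2, 48.6 and 41.2 CPM. The groups did not overlap, and KPC 2 was the lowest KPC library. The means were 95.4 ± 16.4 and 49.8 ± 10.1 CPM (SD, n = 4), and Atf4 fell by 0.94 ± 0.18 (SE) on the log2 scale (edgeR adjusted p = 0.00366). Its direction turned with library sizes alone, at 0.81 ± 0.26 (edgeR adjusted p = 0.00824). With log2(TPM + 1) and limma, re-centred on the median gene, the call was lost (adjusted p = 0.0967).

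The genes of serine and asparagine synthesis also fell. Phgdh, Psat1 and Psph encode the successive enzymes that turn the glycolytic intermediate 3-phosphoglycerate into serine. Phgdh (ENSMUSG00000053398, chromosome 3, 98313170 to 98339990) stood at 208, 159, 158 and 169 CPM in the KPC libraries and at 59.0, 41.7, 93.6 and 31.4 CPM in the KPC-OG libraries. The groups did not overlap and KPC-OG 3 was the highest of its group. Phgdh fell by 1.62 ± 0.30 on the log2 scale (edgeR adjusted p = 0.00345). Psat1 (ENSMUSG00000024640, chromosome 19, 15904678 to 15947337) stood at 52.9, 41.1, 45.4 and 44.6 CPM in KPC and 14.2, 12.0, 23.4 and 11.6 CPM in KPC-OG. On this scale Psat1 again had no overlap and its highest KPC-OG value in KPC-OG 3. As TPM, Psat1 was highest in KPC-OG 4 of that group. Psat1 fell by 1.60 ± 0.22 (edgeR adjusted p = 0.00103). Psph (ENSMUSG00000029446, chromosome 5, 129765558 to 129787449), the phosphatase of the last step, stood at 8.02, 7.51, 4.78 and 6.08 CPM in KPC and 3.87, 4.22, 5.04 and 3.72 CPM in KPC-OG. KPC 3 lay below KPC-OG 3, so the groups overlapped. Psph fell by 0.66 ± 0.21 (edgeR adjusted p = 0.0339). Leaving out number 1, 2 or 4 of either genotype ended the Psph call (edgeR adjusted p up to 0.0957). So did using no count filter (0.0658), the replicate number as a block (0.0678), and re-centring of library sizes (0.143) or TPM (0.0962 with a pseudocount of 1 and 0.0761 with 0.1). Its direction turned with library sizes alone, at 1.05.

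Asns (ENSMUSG00000029752, chromosome 6, 7675169 to 7693254) encodes asparagine synthetase, which makes asparagine from aspartate with the amide group of glutamine. It stood at 234, 136, 194 and 172 CPM in KPC and at 50.2, 35.3, 86.1 and 31.6 CPM in KPC-OG. Every KPC library lay above every KPC-OG library, of which KPC-OG 3 was the highest. Asns fell by 1.86 ± 0.32 on the log2 scale (edgeR adjusted p = 0.00242), and by 2.22 ± 0.23 without KPC-OG 3 (edgeR adjusted p = 9.02e-05). For Asns, Psat1 and Phgdh the log2 fold changes with library sizes alone were -0.24, 0.05 and -0.02, none past the test (edgeR adjusted p = 0.321, 0.817 and 0.940).

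Of the glutathione and cystine genes, Chac1 had the lowest log2 fold change of the 10 with TMM and with library sizes alone. Chac1 (ENSMUSG00000027313, chromosome 2, 119351229 to 119354381) encodes an enzyme that breaks down glutathione. It stood at 50.2, 10.5, 14.9 and 19.4 CPM in KPC and at 4.57, 2.72, 7.07 and 2.89 CPM in KPC-OG. The groups did not overlap, and KPC 1 lay far above the other 3 KPC libraries. Chac1 fell by 2.50 ± 0.53 (edgeR adjusted p = 0.00774). Without KPC 1 the log2 fold change was -1.83 (edgeR adjusted p = 0.00983), and with library sizes alone it was -0.79 (edgeR adjusted p = 0.0556). Slc7a11 (ENSMUSG00000027737, chromosome 3, 49892526 to 50443614) encodes xCT, which imports cystine in exchange for glutamate. It stood at 42.6, 22.9, 23.9 and 27.2 CPM in KPC and at 16.5, 17.7, 17.7 and 17.3 CPM in KPC-OG. The groups did not overlap and KPC 1 was again the highest on this scale, as for 9 of the 10 genes. As TPM, KPC 1 was the highest KPC library for 2 of the 10, and Slc7a11 was highest in KPC 3 (4.31, against 3.94 in KPC 1). Slc7a11 fell by 0.76 ± 0.19 (edgeR adjusted p = 0.0114), but its log2 fold change was 1.02 with library sizes alone (adjusted p = 0.00285). The Slc7a11 call was lost after re-centring library sizes (adjusted p = 0.0546) and TPM (0.223 and 0.141).

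Of the stress transcription factors Atf3 and Ddit3 and the pseudokinase Trib3, Atf3 alone passed the test. Atf3 (ENSMUSG00000026628, chromosome 1, 191170296 to 191218039), a basic leucine zipper factor induced by many stresses, had 6, 3, 6 and 2 counts in the KPC libraries and 74, 73, 25 and 96 in the KPC-OG libraries. On the TMM scale these were 1.15, 0.563, 1.59 and 0.338 CPM against 2.25, 1.89, 1.64 and 2.86 CPM. The groups did not overlap, though KPC 3 and KPC-OG 3 lay close together. The log2 fold change of Atf3 was 1.32 ± 0.45 (edgeR adjusted p = 0.0454). Atf3 passed the count filter through the KPC-OG libraries, where it is high, so this call is given as a description. Leaving out number 1, 2 or 4 of either genotype ended the Atf3 call (edgeR adjusted p up to 0.128). So did using no count filter (0.0628), limma-voom (0.0851), the replicate number as a block (0.0905), and re-centring of library sizes (0.150) or TPM (0.373 with a pseudocount of 1 and 0.133 with 0.1). Ddit3 (ENSMUSG00000025408, chromosome 10, 127290774 to 127296288), which encodes the pro-apoptotic factor CHOP, stood at 6.88, 1.88, 6.10 and 4.39 CPM in KPC and 6.42, 6.32, 3.93 and 5.21 CPM in KPC-OG. The groups overlapped, and the log2 fold change of Ddit3 was 0.21 ± 0.34 (edgeR adjusted p = 0.670). Trib3 (ENSMUSG00000032715, chromosome 2, 152337422 to 152344032), whose product binds ATF4 and holds it back, stood at 5.16, 0.939, 1.59 and 1.69 CPM in KPC and 1.55, 1.61, 1.31 and 2.26 CPM in KPC-OG. Its log2 fold change was -0.48 ± 0.48 (edgeR adjusted p = 0.474), and 0.26 without KPC 1, the highest library. Atf3, Ddit3 and Trib3 had log2 fold changes of 3.10, 2.03 and 1.38 with library sizes alone, all past the test.

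**Figure D2:**
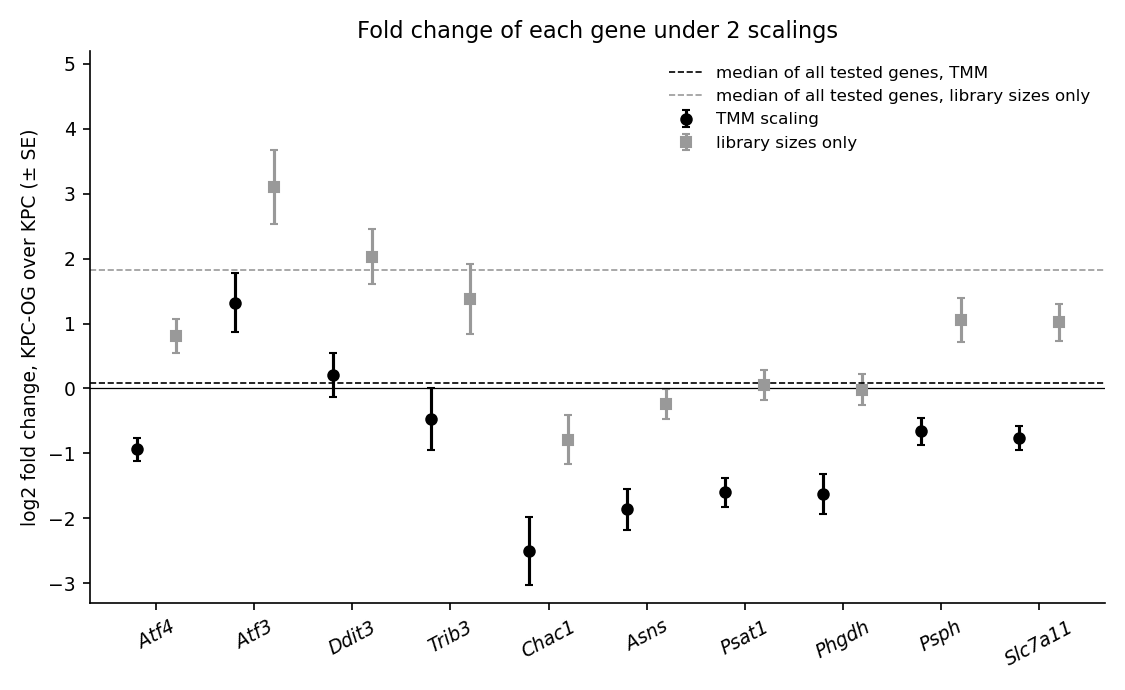
Log2 fold change, KPC-OG over KPC, of each gene with its standard error from edgeR, with TMM scaling (black circles) and with library sizes alone (grey squares); dashed lines are the medians of all tested genes on each scale, 0.09 and 1.82. Changing the scale moves all 10 genes up together, and on both scales Atf3 and Ddit3 lie above the median gene and the other 8 genes below it.

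A ratio of a gene to Atf4 within a library does not depend on scaling between libraries, and it asked whether the other 9 genes kept their proportion to Atf4. The log2 ratio of Asns to Atf4 reads was 1.07, 0.91, 0.99 and 0.78 in the KPC libraries. In the KPC-OG libraries it was -0.36, -0.36, 0.83 and -0.38. KPC-OG 1, 2 and 4 lay below every KPC library, and KPC-OG 3 lay among the KPC values. The mean Asns ratio differed by -1.005 (exact permutation p = 0.0571, two-sided as throughout, and 0.129 when adjusted over the 9 ratios). Phgdh and Psat1 showed the same pattern of 3 low KPC-OG libraries, with differences of -0.79 and -0.70 (exact permutation p = 0.114 for each, adjusted p = 0.171). Chac1 relative to Atf4 differed by -1.37 (exact permutation p = 0.0571, adjusted p = 0.129). In the other direction, the log2 ratio of Atf3 to Atf4 was -6.94 ± 0.96 for KPC (SD, n = 4) and -4.54 ± 0.48 for KPC-OG. This was a difference of 2.40 with no overlap (exact permutation p = 0.0286, adjusted p = 0.129). Atf3 had only 2 to 6 counts in the KPC libraries and passed the count filter through KPC-OG, so its ratios are given as a description. The log2 ratio of Ddit3 to Atf4 was -4.45 ± 0.60 and -3.19 ± 0.35, a difference of 1.26, also with no overlap (exact permutation p = 0.0286, adjusted p = 0.129). Atf4 itself had a log2 fold change of -0.94 with TMM, beside 0.09 for the median gene. A typical gene therefore also rises relative to Atf4. The share of all genes without overlap in this ratio was not computed. Trib3, Psph and Slc7a11 differed by 0.74, 0.31 and 0.23 (exact permutation p = 0.171, 0.343 and 0.314). None of the 9 ratios passed after adjustment, and the smallest p that 4 against 4 libraries allows is 0.0286. Without KPC-OG 3 the ratios of Atf3, Ddit3, Chac1, Asns, Psat1 and Phgdh were 2.52, 1.40, -1.65, -1.30, -0.93 and -1.08 (exact permutation adjusted p = 0.0429 for each). That library was singled out after its values were seen, and leaving out any of the other 7 gave no ratio past the threshold.

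**Figure D3:**
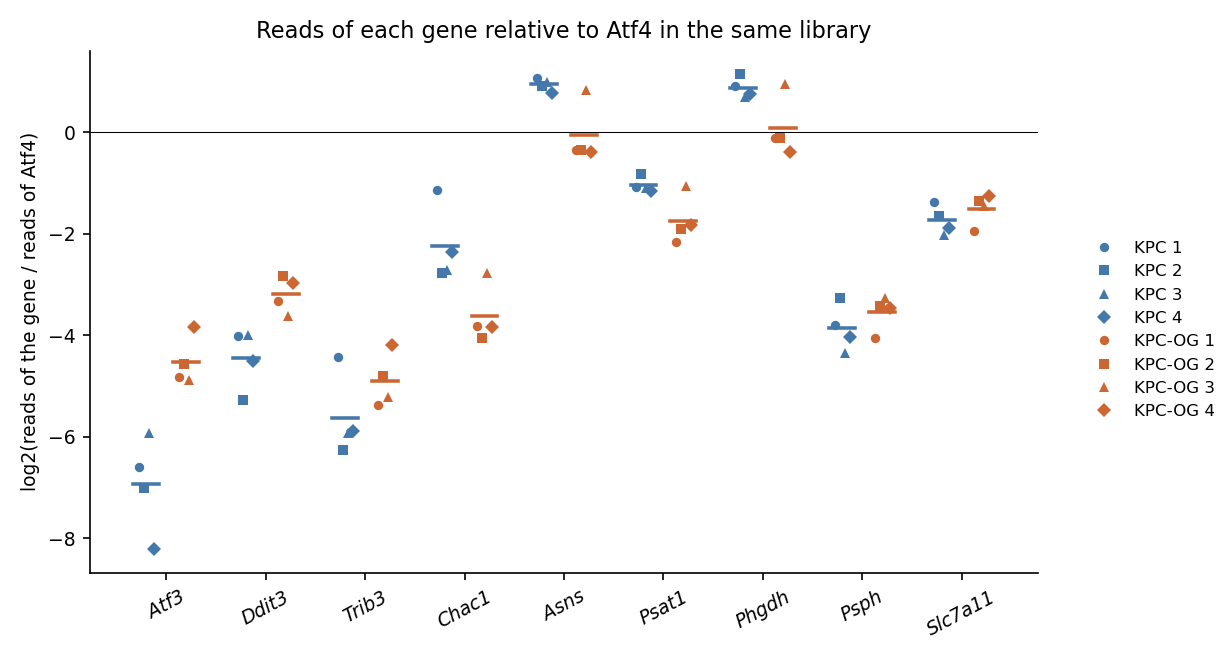
Log2 ratio of the reads of each gene to those of Atf4 in the same library; points are libraries and bars are group means. Atf3 and Ddit3 lie higher in all 4 KPC-OG libraries than in KPC, though a typical gene also rises relative to Atf4. For Asns, Psat1 and Phgdh 3 KPC-OG libraries lie below KPC and KPC-OG 3 lies with KPC.

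Acinar genes moved with these results. Of 31 tested acinar enzyme genes 22 fell and none rose with TMM (3 higher and 8 lower with library sizes alone). This count depends on single libraries: 11 fell without KPC 1, and 12, 13, 15 and 15 without KPC-OG 2, KPC-OG 1, KPC-OG 4 or KPC 4, against 30 without KPC-OG 3. Amylase and trypsin genes are near-identical copies whose reads the estimation could divide. All 6 acinar identity genes (Ptf1a, Rbpjl, Bhlha15, Nr5a2, Gata4 and Gatm) fell with TMM (2 higher and 0 lower with library sizes alone), though Ptf1a lost its call without KPC 1, KPC 4, KPC-OG 2 or KPC-OG 4 (edgeR adjusted p up to 0.0754). They had summed levels of 965 to 1433 CPM in KPC and 231 to 495 CPM in KPC-OG. Of 9 duct genes 7 rose (summed 329 to 473 CPM in KPC, 683 to 1295 CPM in KPC-OG), as did 8 of 8 macrophage genes (134 to 220 against 329 to 483 CPM) and 6 of 7 fibroblast genes (954 to 1275 against 1599 to 4562 CPM). Over all tested genes 17.4% were called higher and 16.6% lower. After re-centring library sizes 6 duct, 6 macrophage and 4 fibroblast genes were called higher, and with log2(TPM + 0.1) 6, 6 and 0. Mrc1 of the macrophage list lost its call in 4 of the fits that each left out a library, and Pdgfrb of the fibroblast list in 6. No marker of these 5 lists was at 0 in a whole group. The endothelial, T cell and B cell lists had no gene called, with 4, 4 and 3 tested. Islet and neutrophil lists had 1 gene called higher each, of 6 and 4 tested. Liver genes, with 3 of 6 tested and 2 of these called higher, summed to 16.0 to 29.6 CPM in KPC, to 23.4 CPM in KPC-OG 1, 271 CPM in KPC-OG 2, 321 CPM in KPC-OG 3, the highest, and 25.2 CPM in KPC-OG 4. Fgb was at 0 in all KPC libraries, and neither liver call held without KPC 1, KPC 2 or KPC 3. In bulk tissue, fewer cells of a type and less RNA per cell cannot be told apart. The part of acinar, other cell type or liver content in the changes of the 10 genes was not tested. Across the KPC-OG libraries the order by acinar enzyme share was KPC-OG 3, 1, 2 and 4. TMM-scaled levels of Asns, Phgdh and Psat1 had the same order, while Atf3 was highest in KPC-OG 4 and lowest in KPC-OG 3. The TMM factors, which divide these levels, rose in that order too (1.14, 1.83, 2.22 and 2.28). As TPM, Asns and Phgdh kept the order, while Psat1 was highest in KPC-OG 4 (14.9) and lowest in KPC-OG 2 (13.8). The part of the scaling in this order was not tested. Atf4, Chac1, Psph and Slc7a11 did not follow that order. Nor did Asns, Phgdh or Psat1 follow the order of the KPC libraries by acinar share (KPC 1, 2, 4 and 3).

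The 10 genes were also set against the summed acinar enzyme reads of the same library. The log2 ratio of Asns to the acinar enzyme sum was -12.19 ± 0.20 for KPC (SD, n = 4) and -11.97 ± 0.28 for KPC-OG, a difference of 0.22 (exact permutation p = 0.257, and 0.286 when adjusted over the 10 ratios). Chac1 differed by -0.14 (exact permutation p = 0.771), Phgdh by 0.43 (p = 0.0571) and Psat1 by 0.52 (p = 0.114). Atf4 differed by 1.22 (exact permutation p = 0.0857) and Slc7a11 by 1.46 (p = 0.0571). Larger differences were those of Psph at 1.54, Ddit3 at 2.48 and Atf3 at 3.63, in which the groups did not overlap (exact permutation p = 0.0286 for each, adjusted p = 0.0952). The acinar enzyme sum itself fell, from a mean of 849838 to 221694 TMM-scaled CPM, so a typical gene also rises in this ratio. The share of all genes without overlap in it was not computed, so these differences are a description. Atf3 also had only 2 to 6 counts in the KPC libraries. Trib3 differed by 1.96 (exact permutation p = 0.0571). None of the 10 passed after adjustment. Without KPC-OG 3, Atf4, Atf3, Ddit3, Psat1, Phgdh, Psph and Slc7a11 had an exact permutation adjusted p of 0.0408, but KPC-OG 3 was set aside for its acinar share, which is the denominator here, so these values are a description. Leaving out any of the other 7 libraries gave none past the threshold. The Chac1 difference turned to 0.21 without KPC 1 and to 0.0027 without KPC-OG 3.

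**Figure D4:**
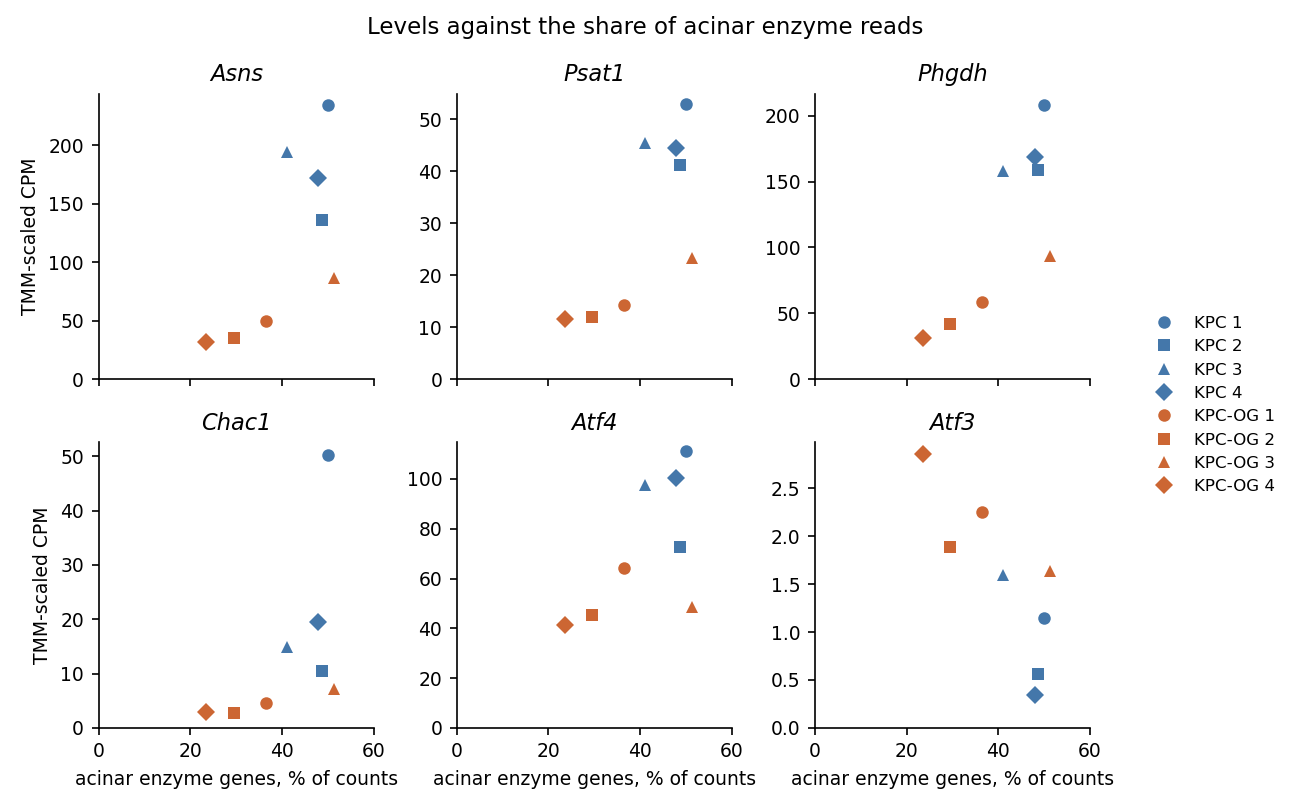
TMM-scaled CPM of 6 genes (y axis, from 0) against the percent of counts held by the 32 acinar enzyme genes (x axis) in each library. Within KPC-OG, Asns, Psat1 and Phgdh are highest in KPC-OG 3, where acinar enzymes hold 51.2% of counts, and lowest in KPC-OG 4, where they hold 23.5%. Atf3 has the reverse order at these ends. The y axis depends on the TMM factor, lowest in KPC-OG 3 (1.14) and highest in KPC-OG 4 (2.28) of this group. As TPM, Psat1 is highest in KPC-OG 4.

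Levels of different genes were compared as deposited TPM, which allows for transcript length. In KPC the order by mean TPM was Phgdh (79.6 ± 7.15), Asns (75.97 ± 9.12), Atf4 (44.0 ± 3.32), Psat1 (17.6 ± 3.79), Chac1 (10.9 ± 6.71), Psph (4.63 ± 2.16), Ddit3 (4.62 ± 2.02), Slc7a11 (3.76 ± 0.565), Trib3 (0.912 ± 0.554) and Atf3 (0.383 ± 0.220) (SD, n = 4). Neighbours in this order overlapped in range except Asns and Atf4, Atf4 and Psat1, and Slc7a11 and Trib3. In KPC-OG Phgdh (74.3 ± 10.3), Atf4 (71.2 ± 20.1) and Asns (60.9 ± 8.63) headed the order with overlapping ranges. Ddit3 (17.7 ± 7.20) stood above Psat1 (14.6 ± 0.509) by mean, but their ranges overlapped, and in KPC-OG 3 Ddit3 was the lower (7.21 against 14.8). Chac1 was the eighth, at 5.95 ± 0.958 TPM. Per transcript, then, Atf4 was below Asns in each KPC library, and above it in 3 of the 4 KPC-OG libraries. Unscaled TPM adds up to the same total in each library, so its changes between groups also depend on what the most abundant transcripts take.

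Atf4 and Chac1 had a single transcript model each. The main coding model held 91.4% of Asns reads in KPC and 90.2% in KPC-OG, and that of Phgdh held 97.3% and 95.8%. Psat1 was divided between a pair of coding models, a longer one (46.5% in KPC, 62.1% in KPC-OG) and a shorter one (44.0% and 35.2%), with overlapping ranges. A retained-intron model took 26.0% of Ddit3 reads in KPC (15.2% to 35.2%) and 12.9% in KPC-OG (9.57% to 17.03%). The retained-intron model of Slc7a11 took 29.2% and 34.1%. Splitting reads between models rests on the authors' estimation, and these shares were not tested.

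The wider pathway gave the setting, with 74 genes in 6 lists, all of them tested. Together 10 rose and 36 fell, against 17.4% and 16.6% of all tested genes. The lists were chosen with earlier results of these data known, so this contrast is a description. Under library-size scaling 50 of the 74 were called higher and 1 lower, and the counts by list were 8 higher of 10 for eIF2 kinases and feedback, 12 of 15 for partners and targets, 5 of 12 for transporters, 10 of 12 for serine and folate, 6 of 14 for other amino acid genes and 9 of 11 for glutathione. Among the kinases of eIF2 and their feedback, 7 of 10 fell and none rose with TMM, with a median log2 fold change of -0.77. The count lower was 2 with log2(TPM + 1), 3 with log2(TPM + 0.1) and 0 with library sizes alone. Eif2ak3, which encodes PERK, fell by 1.07 ± 0.19 (edgeR adjusted p = 0.00235), and Gcn1, which encodes the activator of GCN2, by 0.72 ± 0.12. Eif2ak4, which encodes GCN2 itself, fell by 0.87 ± 0.20 (edgeR adjusted p = 0.00757). Dnajc3, an inhibitor of PERK, fell by 1.68 and Ppp1r15b, the constitutive regulatory subunit of the eIF2 phosphatase, by 1.22. Eif2ak3, with log2(TPM + 1), and Gcn1 and Eif2ak4, with both TPM pseudocounts, did not pass limma's test.

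Amino acid transporters fell in 8 of 12 cases and rose in none, with a median of -1.31. Slc3a2, the heavy chain that pairs with xCT and with LAT1, fell by 1.49 ± 0.21 (edgeR adjusted p = 0.00116), and Slc7a5, which encodes LAT1, fell by 1.82 ± 0.27. The cationic amino acid transporter gene Slc7a1 fell by 1.72 and the lysosomal transporter gene Slc36a1 by 2.05. Their log2 fold changes with library sizes alone were 0.21 for Slc3a2, -0.16 for Slc7a5, -0.02 for Slc7a1 and -0.40 for Slc36a1.

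In the list of serine, glycine and folate metabolism 6 of 12 fell and 1 rose, with a median of -0.47. The mitochondrial folate enzyme genes Aldh1l2, Mthfd2 and Shmt2 fell by 2.14 ± 0.32, 1.74 ± 0.30 and 1.11 ± 0.20, and cytosolic Mthfd1 by 0.93 ± 0.15. Gldc, the glycine decarboxylase gene, was at 0 in all 4 KPC libraries and at 0.987 ± 0.376 CPM in KPC-OG (SD, n = 4). With 3 counts summed over KPC as the floor KPC-OG was at least 6.66-fold higher. Gldc passed the count filter through the KPC-OG libraries, where it is high, so its call (edgeR adjusted p = 0.00739) is given as a description; limma on TPM did not make it. The list's median was the same with Gldc at this bound. Of 14 genes of other amino acid synthesis and use 9 fell and 1 rose, with a median of -1.10. The proline synthesis genes Aldh18a1 and Pycr1 fell by 1.39 ± 0.17 and 1.47 ± 0.18, and the mitochondrial phosphoenolpyruvate carboxykinase gene Pck2 by 1.57 ± 0.25. Glul, which encodes glutamine synthetase, rose by 1.14 ± 0.31 (edgeR adjusted p = 0.0180). The Glul call was lost without KPC 1 (adjusted p = 0.0547) or KPC 4 (0.0530).

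Other partners and targets of ATF4 were divided, with 3 of 15 higher and 4 lower and a median of -0.64. The count lower was 7 with DESeq2 and with the replicate number as a block, and the count higher was 1 with log2(TPM + 0.1). The stress and growth arrest gene Gadd45a rose by 2.05 ± 0.32 and the basic leucine zipper genes Jdp2 and Cebpb by 1.52 ± 0.27 and 1.08 ± 0.19. Jdp2 had only 4 to 9 counts in the KPC libraries and passed the count filter through the KPC-OG libraries, where it is high. The Jdp2 call is therefore given as a description. Stc2, Vldlr, Eif4ebp1 and Vegfa fell by 1.67, 1.60, 0.90 and 0.64. The calls of Cebpb and Vegfa were lost after re-centring library sizes, and those of Cebpb, Jdp2, Vegfa and Eif4ebp1 with at least 1 of the TPM pseudocounts. The glutathione list had a median of 0.36, with 5 of 11 higher and 2 lower. Hmox1, heme oxygenase 1, rose by 1.15 ± 0.23, the glutathione synthetase gene Gss by 0.95 ± 0.16 and the sulfiredoxin gene Srxn1 by 0.89 ± 0.22. Gsr and Gpx4 rose by 0.49 and 0.36, calls that did not hold. Gsr lost its call in 5 of the 8 fits that each left out a library (KPC 2, KPC 3 and all of KPC-OG but number 3; edgeR adjusted p up to 0.0848), and Gpx4 lost its call in the same 5 and without KPC 4 (up to 0.116). Ggt1, which cleaves glutathione outside the cell, fell by 1.94 ± 0.37, and Chac2, a relative of Chac1, by 1.21 ± 0.27. None of the 5 rises of this list was called after re-centring library sizes or on TPM.

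**Figure D5:**
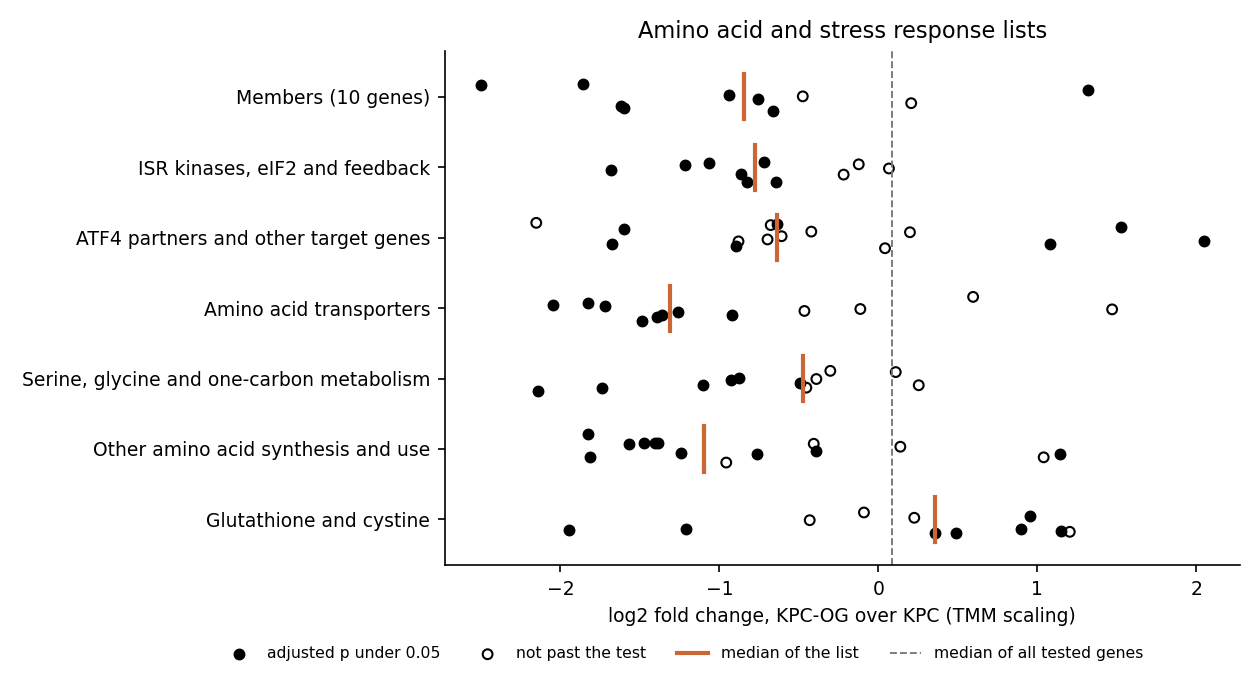
Log2 fold change (TMM scaling) of each gene in the 10-gene set and 6 pathway lists; filled points passed edgeR's test, open points did not, orange bars are list medians and the dashed line is the median of all tested genes, 0.09. Gldc, at 0 in every KPC library, is counted in its list's median but not drawn; the transporter list has the lowest median of the 6 lists, -1.31, and the glutathione list the highest, 0.36.

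Among 6438 protein-coding genes with at least 10 CPM, the 5 whose levels followed Atf4 most closely within the genotypes were Jund, Mgat2, Alg11, Fads6 and Slc38a2. Their Pearson r over the 8 libraries, after each group's mean was subtracted from log2 CPM, was 0.98, 0.98, 0.96, 0.96 and 0.95. These genes were picked for the highest r among many candidates over few libraries that share their scaling, so the values are a description and no evidence of a relation. The median r of all candidates was 0.21. Slc38a2, a transporter of neutral amino acids, fell by 0.92 ± 0.19 (edgeR adjusted p = 0.00558). The same r was 0.70 for Ddit3, 0.67 for Chac1, 0.55 for Asns, 0.47 for Phgdh, 0.45 for Trib3, 0.45 for Slc7a11, 0.35 for Psat1, 0.17 for Atf3 and -0.10 for Psph.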

How the data were processed

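RNA sequencing after ribosomal depletion was done on whole pancreas. Per the file headers, the authors estimated reads and TPM per transcript with Sailfish 0.6.3 (k-mers of 20 bases, 1000 iterations) on an Ensembl release 76 mouse index. The deposited estimated counts, the authors' output of that step, are not scaled between libraries, and the deposited TPM is scaled within each library. The submitters' processing notes also name STAR 2.0.4b, edgeR and limma, without their roles. Here, counts of 83827 of 86127 transcripts were summed over GENCODE M21 genes (GRCm38) and rounded, and TPM likewise. The unmatched transcripts held 1.45% to 4.23% of reads and were left out. No source used here states whether reads were counted by strand, so overlapping genes cannot be told apart.

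The test was edgeR 4.0.16 quasi-likelihood (R 4.3.3, TMM, filterByExpr, no covariate), with Benjamini-Hochberg adjustment at 0.05 over all tested genes. The standard error is the log2 fold change over the root of F. Ratios within a library were compared by exact permutation over 70 arrangements. Gcn1 and Pycr3 were found under older symbols through RefSeq synonyms. Alternatives were DESeq2 1.42.0, limma-voom and TPM with limma 3.58.1, other scaling and filters, a replicate block and leaving out each library. The code was tested on simulated data. Replicate libraries differed by at least 14.7 in chi-square per degree of freedom, so all 8 were kept. The genes and lists were chosen with earlier results of these data known. From each list, up to 4 passing genes with the smallest adjusted p, and every passing gene of a list or direction with 5 or fewer, were named. With Atf4, the 5 protein-coding genes of at least 10 CPM with the highest r were named, and Eif2ak4 was named after its values were seen. A gene that this rule names is not reported here.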

Additional observations from a re-analysis of the deposited data

Results flagged for a closer look

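In each group of 4 libraries, the gap between an extreme library and its neighbour was set against the group's range for the 10 genes, as TMM-scaled CPM and as TPM, 40 groups of values in all, of which chance flags about 1 in 20. Trib3 stood at 1.74 TPM in KPC 1, with a gap of 0.885 of the range above the other KPC libraries. Psat1 stood at 13.8 TPM in KPC-OG 2, with a gap of 0.834 of a narrow range below the other KPC-OG libraries.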

How the results depend on the processing

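With library sizes alone, 13078 genes were called higher and 99 lower, 6 of the 10 genes higher and 0 lower, and 50 pathway genes higher and 1 lower, and Atf4 (0.81), Trib3 (1.38), Psat1 (0.0542), Psph (1.05) and Slc7a11 (1.02) changed sign. After re-centring on the median gene, 917 genes were called higher and 1400 lower, with 0 of the 10 and 4 pathway genes higher. With log2(TPM + 1) and limma 987 genes were called higher, with 0 of the 10 higher and 4 lower and 3 pathway genes higher. With log2(TPM + 0.1) 616 were called higher and 1008 lower, with 0 of the 10 and 1 pathway gene higher. None of the 10 was called higher either with no count filter, with limma-voom, with the replicate number as a block, and, in alternatives chosen after seeing the data, with the thread count of the file headers as a term or among libraries with 24 threads; the cause was not tested. Leaving out each library in turn gave 1689 to 2880 genes higher, 1705 to 2548 lower, 0 to 1 of the 10 higher and 6 to 7 lower, 8 to 11 pathway genes higher and 33 to 41 lower, 0 to 6 ratios to Atf4 and 0 to 7 ratios to acinar enzymes past the threshold. Without single libraries Ddit3 ran from -0.0741 (without KPC 2) to 0.4366, Trib3 from -0.752 to 0.2636 (without KPC 1), and the Chac1 to acinar difference from -0.3866 to 0.208 (without KPC 1), at 0.0027 without KPC-OG 3. Same-numbered libraries correlated at 0.27, 0.28, 0.04 and 0.04 in their deviations from the group means, so the numbers were not taken as pairs; with the replicate block 2477 genes were called higher and 2418 lower, and not every library correlated best with its own number. Atf3, at 2 to 6 counts in KPC, is limited by depth.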
